A study of Mus musculus with 6 samples.

Results

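Nonsense-mediated decay transcripts are messages whose annotated stop codon lies upstream of a later exon junction. In the canonical pathway a splicing-dependent protein complex is left near each junction, and a ribosome that stops well before such a complex allows UPF1 and its partners to start breakdown of the message. Splicing-factor genes are known for using this route to limit their own output, through exons that carry a stop codon. The members described here are the autosomal transcripts of the GENCODE M21 type nonsense_mediated_decay that reached a mean of 1 TPM (a length-corrected transcript abundance) or more over 6 mouse RNA-seq libraries. They were thus chosen by their measured level. There were 1804 such transcripts out of 7054 autosomal ones of this type, in 1456 host genes. They stood among 141429 matched transcripts of the 142647 in each library. The class is the annotation's prediction from the position of the stop codon, and decay itself was not measured.

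The study compared wild-type CD4+ T cells (WT, 3 libraries, labelled wild type) with Wtap knockout CD4+ T cells (Wtap KO, 3 libraries), all of strain C57BL/6J. Wtap encodes a subunit of the nuclear complex that writes N6-methyladenosine (m6A) into RNA. The treatment text is the same for both groups and lists 4-hydroxytamoxifen at 1 µM for 24 h, then anti-CD3 at 1 µg/mL, anti-CD28 at 2.5 µg/mL, anti-IL-4 at 10 µg/mL and IL-12 at 10 ng/mL for 40 to 48 h, then IL-2 at 200 IU/mL with harvest on day 4. The sources used here do not give the driver of the recombinase, its presence in WT cells, the age of the mice or the animal behind each library. The p-values therefore cover spread among these 6 libraries, which may be technical, apart from a difference of Wtap KO replicate 3 in sex-linked genes given below.

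Depth was 32363139 to 44039467 estimated counts per library. The defining CD4 T cell markers summed to 3484 to 3824 TPM over the WT libraries and 2922 to 3202 TPM over the Wtap KO libraries, with 2 of 8 called lower. Marker sums of other cell types lay lower. They reached at most 13.9 TPM for CD8 T cells (11.4 or more in Wtap KO and 7.79 or less in WT) and 4.41 for B cells. Dendritic cell markers reached 7.26 TPM (5.19 or more in every Wtap KO library and 2.67 or less in WT), and NK cell markers 133. Macrophage and monocyte markers reached 4.57 TPM, and erythroid and platelet markers 15.0. Granulocyte markers summed to 0.0596 to 0.0689 TPM in WT and 0.101 to 0.305 in Wtap KO. Of these 4 markers, 1 (S100a9) was at 0 in all 6 libraries. In Wtap KO, 1 of 2 CD8 and 1 of 4 tested dendritic cell markers were called higher, and 0 lower. The part of these cell types in the results below was not tested. Wtap itself has no member, and its coding transcript Wtap-205 held 55.8%, 50.7% and 47.4% of the gene's counts in WT and 10.3%, 11.0% and 8.83% in Wtap KO (adjusted p = 0.021, share test described below). Wtap as a gene was not lower, at 105 ± 9.99 CPM (counts scaled to library size) in WT and 117 ± 3.00 CPM in Wtap KO (SD, n = 3, log2 0.16, edgeR adjusted p = 0.371). Its coding transcripts Wtap-201 and Wtap-203 were at 33.7% ± 6.42 and 0.146% ± 0.253 of the gene in WT and 62.5% ± 3.34 and 15.9% ± 2.78 in Wtap KO, both without passing the share test (adjusted p = 0.128 and 0.136). The sources used here do not say which part of Wtap was deleted, so the gene total does not check the labels. Wtap KO replicate 3 stood apart in the sex-linked genes, with Kdm5d at 63.3 CPM against 2.43 to 3.53 in the other 5 libraries. Xist was at 3.81 CPM in it and at 1980 to 4448 CPM in the other 5. By these genes Wtap KO replicate 3 had a male pattern and the other 5 a female one.

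The position of the stop defines the class, so the junction distances of the members follow from the annotation. Of 1802 with an annotated stop codon, 1795 (99.6% of all 1802) had their last exon junction at least 50 bases after it, at a median distance of 331.5 bases (quartiles 161 and 709). The stop was TGA in 1017 members (56.4%), TAA in 426 (23.6%) and TAG in 359 (19.9%). In 1009 members (55.9%) it lay within sequence that a protein-coding transcript of the gene reads in another frame. In 386 (21.4%) it lay in an exon absent from every protein-coding transcript, and in 249 (13.8%) in an extension of a protein-coding exon. The remaining classes were smaller, with 109 members (6.04%) that used the same stop as a protein-coding transcript and owed their class to junctions further downstream, 28 whose stop lay in untranslated sequence of a coding transcript, 21 in genes without a coding transcript and 2 without a stop.

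Reads of 50 bases rarely tell these transcripts from their neighbours. The median member owned 3.74% of its 31-base words, meaning that no other annotated transcript held them, and 248 members owned none. For these the split of reads between transcripts rests on the quantification model, and the error of that split is not in the deposited values. The start of the coding sequence was annotated as not found in 562 members (31.2%).

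The coding ends below belong to members whose share of their gene moved, and show where each reading frame stops. All sequences are the last 60 coding bases in the GENCODE M21 transcripts (GRCm38), 5′ to 3′, with the stop codon in capitals. The first 5 rose in Wtap KO and the next 3 fell:

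St8sia1-203: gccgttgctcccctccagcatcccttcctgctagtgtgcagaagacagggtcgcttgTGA
Oxsr1-202: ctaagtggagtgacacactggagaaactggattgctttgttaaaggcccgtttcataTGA
Arl4a-202: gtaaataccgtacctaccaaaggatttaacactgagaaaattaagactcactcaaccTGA
Spn-202: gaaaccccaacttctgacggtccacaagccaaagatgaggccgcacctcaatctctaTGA
Fam78a-203: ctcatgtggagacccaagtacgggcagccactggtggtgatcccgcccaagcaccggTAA
Ythdc1-208: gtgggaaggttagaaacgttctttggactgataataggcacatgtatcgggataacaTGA
Cenpl-210: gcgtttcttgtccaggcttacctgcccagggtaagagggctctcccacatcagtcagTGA
Il4ra-205: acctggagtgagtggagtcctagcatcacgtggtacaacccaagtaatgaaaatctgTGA

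The St8sia1-203 stop is at chr6:142963463-142963465 (minus strand), where its first exon runs past the splice site used by the coding transcript St8sia1-201. Oxsr1-202 stops at chr9:119290816-119290818 (minus strand), inside a 129-base exon that coding transcripts skip. Arl4a-202 stops at chr12:40011446-40011448 (minus strand), 15 bases into an exon absent from coding transcripts. Spn-202 stops at chr7:127136146-127136148 and Fam78a-203 at chr2:32069245-32069247 (both minus strand), at the stops of their coding transcripts, with 2 and 3 junctions to follow. Ythdc1-208 stops at chr5:86828171-86828173 (plus strand), in an exon of 1525 bases that starts with the coding exon chr5:86827955-86828121 and runs on into its intron to chr5:86829479. Cenpl-210 stops at chr1:161079910-161079912 (plus strand), in a 143-base exon absent from coding transcripts. Il4ra-205 stops at chr7:125571951-125571953 (plus strand), 20 bases into a 114-base exon absent from coding transcripts.

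Another 3 coding ends show members that did not pass the test, 1 of those with the highest levels and a pair from splicing factors known for stop-carrying exons:

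Rpsa-206: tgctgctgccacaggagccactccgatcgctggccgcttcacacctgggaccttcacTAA
Srsf3-201: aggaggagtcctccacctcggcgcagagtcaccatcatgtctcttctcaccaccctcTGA
Tra2b-206: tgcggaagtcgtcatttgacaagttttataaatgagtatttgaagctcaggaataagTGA

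Rpsa-206 stops in another frame of the coding sequence, at chr9:120130192-120130194 (plus strand). Srsf3-201 stops at chr17:29039485-29039487 (plus strand), 34 bases into a 456-base exon, and Tra2b-206 stops at chr16:22259181-22259183 (minus strand), in a 276-base exon. These 2 exons are absent from coding transcripts.

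As a whole, the members took about the same part of their genes in both groups. Their estimated counts over those of their host genes came to 19.1%, 19.4% and 19.8% in the WT libraries and 20.1%, 20.1% and 19.7% in the Wtap KO libraries. That is 19.4% ± 0.352 against 20.0% ± 0.229 (SD, n = 3), and the groups overlap, with WT replicate 3 above Wtap KO replicate 3. The median member held 10.9%, 10.9% and 11.3% of its gene in WT and 11.8%, 11.8% and 11.0% in Wtap KO, again with overlap. As a part of all matched counts, members held 2.84% to 2.88% in WT and 2.90% to 2.93% in Wtap KO, a difference of 0.0495 percentage points between the means with no overlap. In TPM, the members summed to 27804 to 28595.5 in WT and 28189.6 to 28352.1 in Wtap KO, with overlap. No test was run on these sums.

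**Figure D1:**
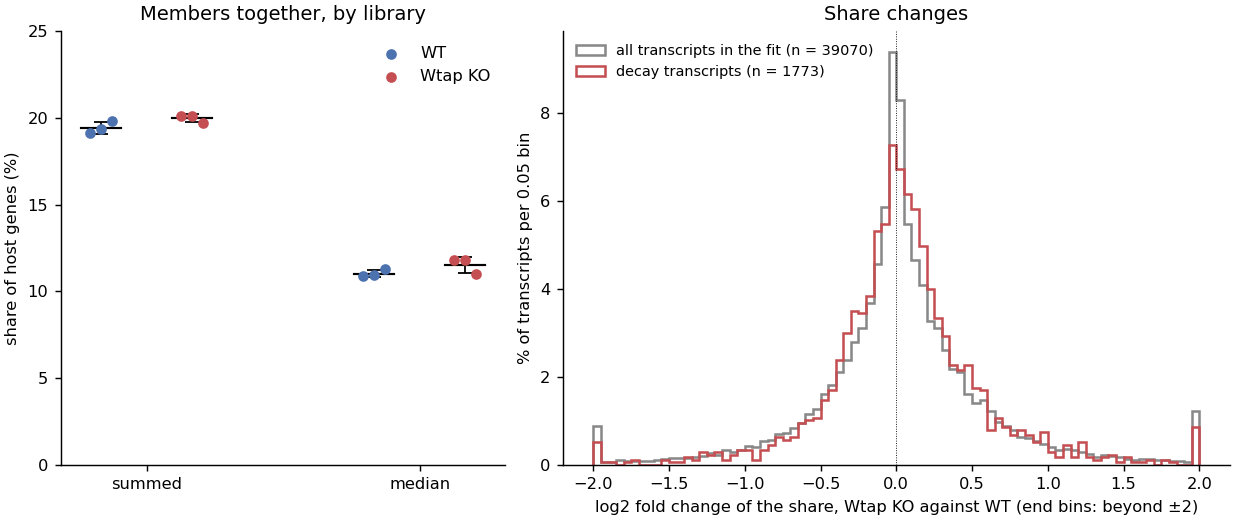
Left, the share of their host genes held by all 1804 members together and by the median member, in percent of estimated counts, with 1 point per library and lines and bars for the mean ± SD (n = 3). Right, the log2 fold change of the share for the 1773 members in the test and for all 39070 transcripts in it, as percent of transcripts per bin. Summed shares of 19.1% to 20.1% overlap between groups, and both distributions centre near 0.

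To test single transcripts, edgeR's quasi-likelihood test was run on estimated counts with the gene's total as offset, so that a change is a change of share. It covered 39070 transcripts, with Benjamini-Hochberg adjustment over the full set and a threshold of 0.05. It held 1773 members, while 31 were too low or alone in their gene. Of these, 6 were called higher and 3 lower in Wtap KO (0.338% and 0.169%), beside 0.11% and 0.0998% of all transcripts tested. At an unadjusted p under 0.05 there were 118 higher and 68 lower, 6.66% and 3.84% against 5.08% and 4.46% of all transcripts. Shares of the 3 libraries of each group did not overlap in 190 members that were higher and 118 that were lower, 10.7% and 6.66% against 9.52% and 8.13%. The median log2 fold change of the share was 0.03 over members, 0.0047 over all transcripts, 0.03 over retained introns and -0.0011 over protein-coding transcripts at 1 TPM or more. The unadjusted and non-overlap shares lie near the background. The share called higher lies above it and rests on 6 transcripts. Because the level threshold used all 6 libraries, 92 members passed it only through the Wtap KO mean and 64 only through the WT mean. Among the 6 rises, 3 passed it only through the Wtap KO mean (Arl4a-202, Oxsr1-202 and St8sia1-203). The set of all transcripts tested had no such threshold, so it is not a like background for these rises. Among autosomal transcripts at 1 TPM or more, edgeR called 20 higher and 28 lower of 14369 protein-coding ones. It called 6 and 4 of 5375 retained introns and 5 and 1 of 2860 processed transcripts.

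The number of calls depended on the tool and on every library. DESeq2's Wald test with the same offset called 43 members higher and 16 lower (2.43% and 0.902%, beside 1.38% and 1.09% of all transcripts) and these held all 9 edgeR calls. limma on the log-ratio of counts called 5 and 2, beside 0.253% and 0.182% of all transcripts. With 1 library left out, edgeR called 0 members for every library but WT 3 (87 to 122 higher and 55 to 66 lower at an unadjusted p under 0.05), and 1, Spn-202, without WT 3. No direction turned in these fits for the 9 members. Their shares do not overlap between the groups, so a turn was hardly possible in refits of the same libraries.

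**Figure D2:**
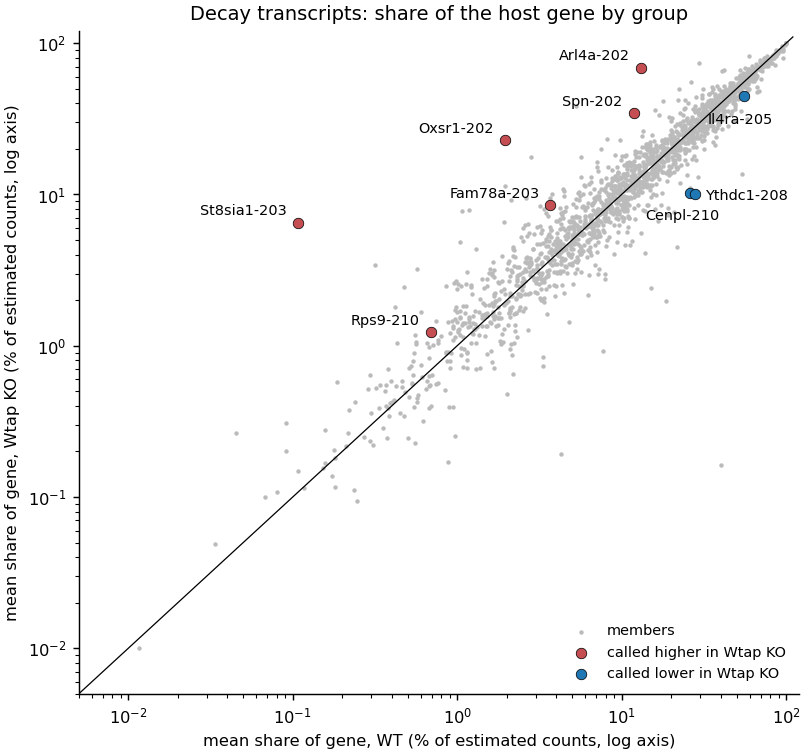
Mean share of the host gene in WT (x) and Wtap KO (y), in percent of estimated counts on log axes, for 1803 members, with 1 member below 0.005% in a group left off. Red points are the 6 members called higher and blue points the 3 called lower, each with an adjusted p under 0.05, and the line marks equal shares.

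Among the rises, the one with the smallest p was in Spn, which encodes CD43, a heavily glycosylated surface protein of T cells. Spn-202 (chr7:127132232-127137814) held 11.6%, 11.2% and 12.6% of the gene's counts in WT and 33.3%, 34.8% and 35.5% in Wtap KO. Every Wtap KO library lay above every WT library. The share rose 2.92-fold (log2 fold change 1.55 ± 0.06, SE, n = 3 per group, edgeR adjusted p = 0.0174). Its level rose from 20.0 ± 2.59 to 38.2 ± 1.95 TPM (adjusted p = 0.0497 in edgeR's test of transcript levels), while the coding transcript Spn-201 fell from 83.4 ± 5.94 to 40.3 ± 4.16 TPM (adjusted p = 0.028). The gene as a whole fell by 0.66 on the log2 scale (adjusted p = 0.0107). Both transcripts use the stop shown above. Spn-201 continues in the same exon to chr7:127133702, whereas Spn-202 leaves that exon 7 bases after the stop at chr7:127136139 and ends in exons at chr7:127133544-127133638 and chr7:127132232-127133000. Of its 31-base words, 35.8% were its own.

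Arl4a encodes a small GTPase of the ARF-like family. Arl4a-202 (chr12:40005447-40037376) made up 11.4%, 15.1% and 12.8% of the gene in WT and 73.5%, 69.0% and 64.4% in Wtap KO, so it passed from a minor transcript to the main one in all 3 libraries. Its share rose 5.26-fold (log2 2.40 ± 0.13, adjusted p = 0.0244), and limma on the log-ratio of TPM and of counts gave log2 3.41 and 3.89. Its level rose 13.3-fold, from 0.454 ± 0.0611 to 6.24 ± 0.555 TPM (log2 3.73 ± 0.17, adjusted p = 0.0113). The share of the coding transcript Arl4a-205 fell from 30.5% ± 5.95 to 5.49% ± 0.481 (adjusted p = 0.045), and that of Arl4a-201 was 48.4% ± 3.22 and 17.1% ± 3.01 (adjusted p = 0.053). The level of Arl4a-201 was 6.00 ± 0.517 TPM in WT against 5.53 ± 1.03 TPM in Wtap KO (adjusted p = 0.787). The gene total rose by 1.33 on the log2 scale (adjusted p = 0.00108). The transcript reaches 27844 bases past the end of every coding transcript, and 62.7% of its 31-base words were its own. The second member of the gene, Arl4a-204, has the same stop and the same last exon and was at 7.95% ± 5.55 and 8.26% ± 1.70.

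Oxsr1 encodes a kinase that acts downstream of WNK kinases in ion transport. Oxsr1-202 (chr9:119240670-119322322) was at 1.87%, 2.70% and 1.27% of the gene in WT and 25.7%, 18.5% and 24.7% in Wtap KO. The lowest Wtap KO share was far above the highest WT share. The rise was 11.8-fold (log2 3.56 ± 0.33, adjusted p = 0.0466) and rested on 19.2 to 33.9 estimated counts per WT library and 267 to 378 per Wtap KO library. The coding transcript Oxsr1-201 held 96.6% ± 1.47 in WT and 75.2% ± 3.84 in Wtap KO (adjusted p = 0.086). Its gene total was not called (log2 -0.27, adjusted p = 0.19).

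St8sia1 encodes the sialyltransferase that makes the ganglioside GD3. St8sia1-203 (chr6:142828232-142964141) was close to absent in WT, at 0.0439%, 0.190% and 0.0894% of the gene, and held 7.05%, 7.39% and 5.12% in Wtap KO. Its share rose 60.2-fold (log2 5.91 ± 0.55, adjusted p = 0.0466), a size that rests on 2.22, 9.96 and 5.16 estimated counts in WT against 224 to 293 in Wtap KO. Without WT 2, which had the most counts in WT, the log2 fold change was 6.61, and by limma on the log-ratio of TPM, with its pseudocount, it was 4.22. St8sia1-202, a processed transcript of the same gene, rose too, from 0.0950% ± 0.0458 to 4.60% ± 0.492 (adjusted p = 0.037). The gene total fell by 0.65 on the log2 scale (adjusted p = 0.00727), and the coding transcript St8sia1-201 fell from 16.7 ± 1.31 to 9.81 ± 0.453 TPM (adjusted p = 0.032).

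The other rises were smaller. Fam78a-203 (chr2:32050055-32084669) went from 3.16%, 3.84% and 4.06% to 8.85%, 8.26% and 8.38% (log2 1.2 ± 0.11, adjusted p = 0.0466), with no overlap. It shares 36.1% of its bases with Gm16534, a gene on the same strand that was not called (log2 -0.24, adjusted p = 0.46), and 5.47% with Nup214 on the opposite strand, so reads cannot be given to 1 gene with certainty there. Rps9-210 (chr7:3704364-3706894), from a ribosomal protein gene, held 0.703%, 0.715% and 0.657% in WT and 1.17%, 1.22% and 1.29% in Wtap KO (log2 0.83 ± 0.07, adjusted p = 0.0408). It stayed a trace beside the coding transcript Rps9-201, at 97.3% ± 0.940 and 97.0% ± 0.760.

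**Figure D3:**
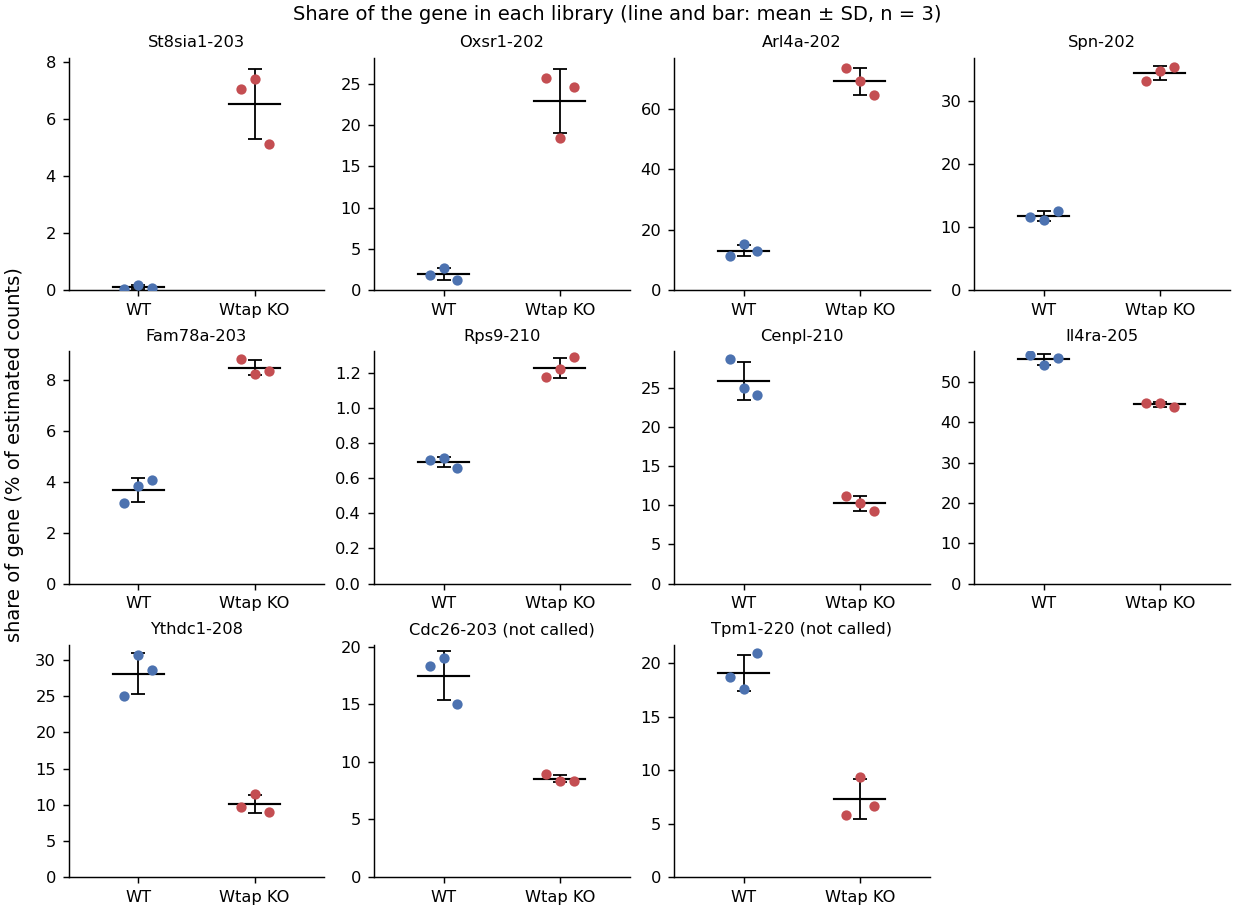
Share of the host gene in percent of estimated counts (y, a scale for each panel from 0) in each WT and Wtap KO library, for the 9 members called in share and for Cdc26-203 and Tpm1-220, which were not called. Lines and bars give the mean ± SD (n = 3), and in all 11 panels no library of 1 group reaches the values of the other.

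Of the 3 falls, 1 was in a reader of m6A. Ythdc1 encodes a nuclear protein that binds m6A through its YTH domain and takes part in splicing. Ythdc1-208 (chr5:86804496-86836659) held 25%, 30.7% and 28.7% of the gene in WT and 9.65%, 11.5% and 9.04% in Wtap KO, a clear gap between the groups. Its share fell by 1.48 on the log2 scale (SE 0.12, adjusted p = 0.0457) and its level from 6.97 ± 0.679 to 3.38 ± 0.189 TPM (adjusted p = 0.0365). The coding transcript Ythdc1-203 rose from 9.80 ± 0.888 to 22.7 ± 1.01 TPM (level, adjusted p = 0.028), with shares of 29.4% ± 1.89 and 50.2% ± 5.46 (adjusted p = 0.072). The retained-intron transcript Ythdc1-207 was at 21% ± 1.2 and 13.4% ± 1.44 (adjusted p = 0.114), in the same direction as the decay transcript. The gene total rose by 0.40 on the log2 scale (adjusted p = 0.0418). Only 55 of the 4316 31-base words of Ythdc1-208 were its own, and 14.5% of its bases overlap the gene Gm43055 on the same strand.

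Il4ra encodes the alpha chain of the interleukin-4 receptor, and in the mouse an extra exon with a stop before the membrane-spanning part is known to yield a soluble receptor. Il4ra-205 (chr7:125552287-125577967) carries an exon of that kind, with the stop shown above, and was the main transcript at 56.7%, 54.1% and 55.8% in WT and 44.9%, 44.8% and 43.7% in Wtap KO. The fall in share was small but tight (log2 -0.32 ± 0.03, adjusted p = 0.0457). Its level was 25.3 ± 4.90 and 30.8 ± 7.5 TPM (adjusted p = 0.702), and the full-length coding transcript Il4ra-201 was at 5.84 ± 1.83 and 13.9 ± 4.02 TPM (adjusted p = 0.158). Il4ra-205 was thus lower as a part of its gene and not in its own level. An antisense gene, Gm44876, covers 4.27% of its bases.

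Cenpl encodes a centromere protein and has 5 members. Cenpl-210 (chr1:161071016-161086338) was at 28.7%, 25% and 24.1% in WT and 11.2%, 10.3% and 9.21% in Wtap KO (log2 -1.34 ± 0.11, adjusted p = 0.0452). It owns no 31-base word, and the 5 members together held 77.3% ± 2.36 of the gene in WT and 75.1% ± 7.31 in Wtap KO, with overlap. Within them Cenpl-206 moved the other way, from 10.2 ± 1.36 to 26.3 ± 1.77 TPM (level, adjusted p = 0.0316), at shares of 22% ± 3.71 and 41.8% ± 4.80 (adjusted p = 0.138). Cenpl-210 ends in an exon of 3431 bases (chr1:161082908-161086338), inside which Cenpl-206 and the coding transcript Cenpl-203 splice out the bases after chr1:161083450. By smallest p among the falls that were not called, Cdc26-203, from a gene of the anaphase-promoting complex, was at 17.5% ± 2.13 and 8.54% ± 0.310 (adjusted p = 0.063). Tpm1-220, from a tropomyosin gene, was at 19.1% ± 1.70 and 7.28% ± 1.87 (adjusted p = 0.125).

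**Figure D4:**
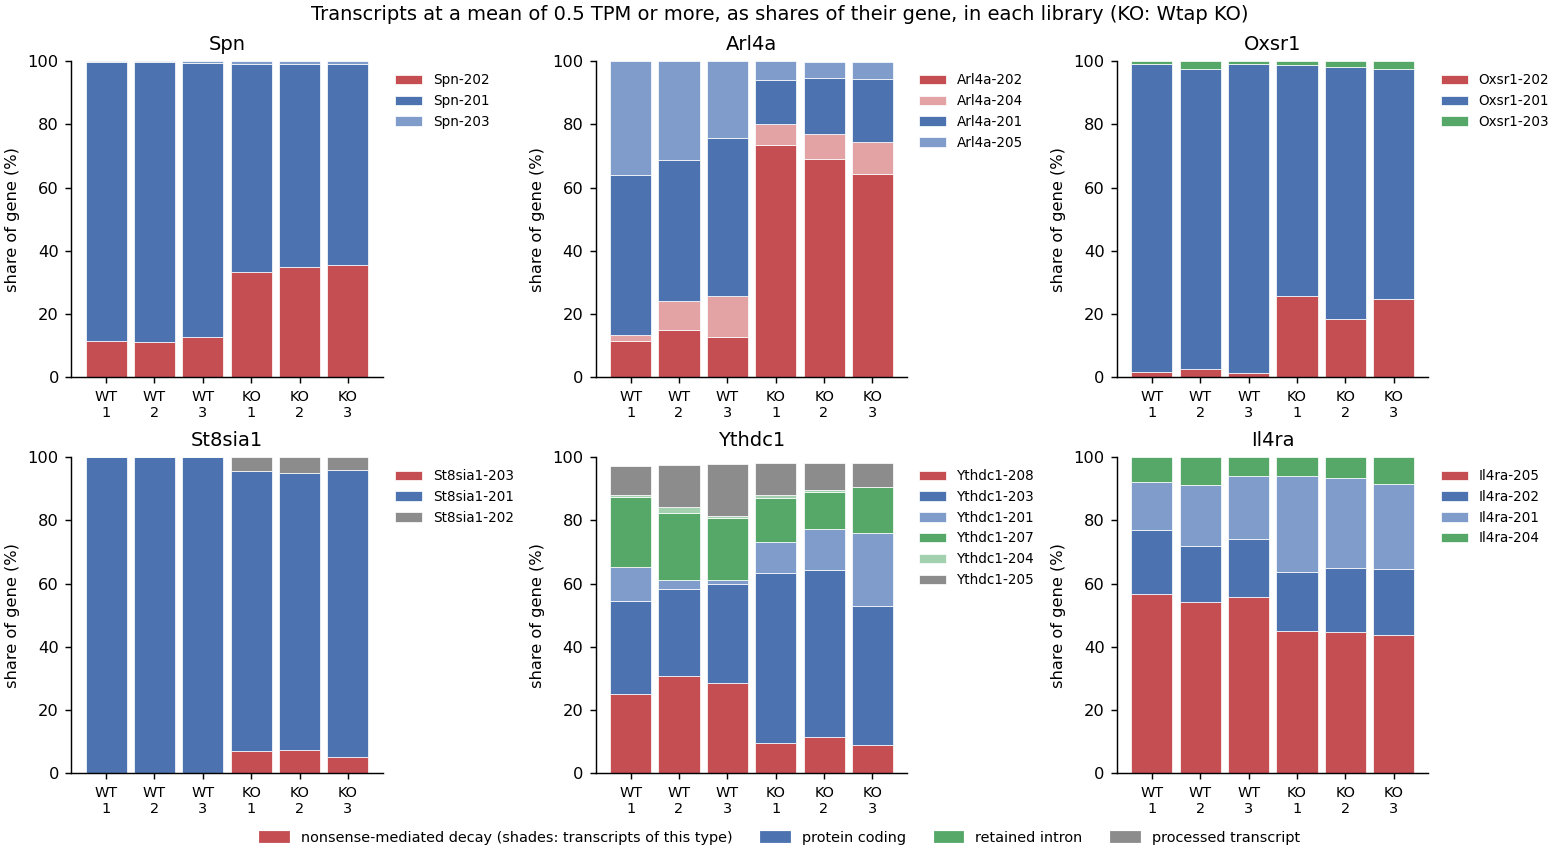
Make-up of 6 host genes in each library as stacked shares of the gene's estimated counts (y, percent), with WT and Wtap KO replicates 1 to 3 along x and colours for the transcript type. Red segments are the decay transcripts, which widen in Wtap KO in Spn, Arl4a, Oxsr1 and St8sia1 and narrow in Ythdc1 and Il4ra.

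By position of the stop, the 9 calls were 4 of 381 tested members with a stop in an exon absent from coding transcripts (Arl4a-202, Oxsr1-202, Cenpl-210 and Il4ra-205), 3 of 109 with the stop of a coding transcript (Spn-202, Fam78a-203 and Rps9-210) and 2 of 249 with an extended exon (St8sia1-203 and Ythdc1-208). None came from the 1002 with a stop in another frame of coding sequence by edgeR, of which 61 were higher and 32 lower at an unadjusted p under 0.05 and DESeq2 called 19 higher and 4 lower. The difference between classes was not tested.

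The 8 members with the highest levels came from genes of translation and folding, and edgeR and DESeq2 called 0 of them in share or level (at an unadjusted edgeR p under 0.05 there were 1 in share, Rps19-205, and 0 in level). Rpsa-206 had a mean of 2065 TPM over the 6 libraries. Rpsa-206 held 92.5% ± 0.639 of Rpsa, the laminin receptor and small-subunit protein gene, in WT and 92.1% ± 0.802 in Wtap KO. Rps19-205 was the tightest, at 49.3%, 49.8% and 49.5% in WT and 50.3%, 50.6% and 51.3% in Wtap KO (log2 0.03 ± 0.01, adjusted p = 0.515). Ppia-201, from the cyclophilin A gene, held 62.2% ± 4.31 and 59.8% ± 2.25. Eef1b2-201, from an elongation factor gene, was at 49.0% ± 3.78 and 50.9% ± 3.05, and Rpl6-208, Rpl13a-216 and Rpl10a-211 lay between 22.4% and 45.2% in both groups. Across both groups, the transcripts named here held means of 22.4% to 92.5% of their genes, as the model splits the reads.

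Ribosomal protein genes held 21 members in 15 genes. edgeR called 1 higher in share (Rps9-210) and 0 lower, beside 0.11% and 0.0998% of all transcripts. DESeq2 called 4 higher in share (Rpl10a-203, Rpl22l1-204, Rpl3-205 and Rps9-210) and 0 lower, beside 1.38% and 1.09%, and 5 higher in level. At an unadjusted edgeR p under 0.05, 7 were higher in share and 0 lower, beside 5.08% and 4.46%, and 7 of 21 did not overlap and were higher, beside 9.52% of all transcripts. Besides Rps9-210 and Rps19-205 these were Rpl10a-203, Rpl12-201, Rpl22l1-204, Rpl3-205 and Rps12-204. Rpl22l1-204 was the largest in percentage points, at 29.2%, 24.1% and 19.7% in WT and 40.4%, 43.9% and 42.8% in Wtap KO (log2 0.80 ± 0.14, adjusted p = 0.165), and it owns no 31-base word. By edgeR, neither its level (log2 -0.04, adjusted p = 0.984) nor its gene (log2 -0.78, adjusted p = 0.0789) was called. Rps12-204 was called in level, from 66.6 ± 4.48 to 121 ± 13.6 TPM (adjusted p = 0.0497). Together the ribosomal members held 26.6% ± 0.503 of their genes in WT and 27.5% ± 0.363 in Wtap KO, and the members of all other genes 18.4% ± 0.299 and 18.8% ± 0.134.

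Splicing factor genes (SR proteins, hnRNPs, CLK kinases and others from a list of such genes) held 61 members in 34 genes. edgeR called 0 of 61 in share or level. At an unadjusted p under 0.05, 5 were higher and 2 lower in share, beside 5.08% and 4.46% of all transcripts. The median log2 fold change of share was 0.01. DESeq2 called 1 in share, Sf1-201 (5.28% ± 1.45 and 9.33% ± 0.954, edgeR adjusted p = 0.304), beside 1.38% of all transcripts called higher. The stop-carrying exon transcript of Srsf3, Srsf3-201, was at 43.8%, 57.6% and 62.5% in WT and 59.0%, 61.3% and 58.0% in Wtap KO, with overlap. Tra2b-206, with the exon shown above, was at 13.5%, 10.1% and 13.6% in WT and 15.7%, 16.0% and 14.9% in Wtap KO, higher in all 3 without passing the test (log2 0.32 ± 0.13, adjusted p = 0.518). Tra2a-202 went the opposite way, at 15.1% ± 0.218 and 12.7% ± 0.912 (adjusted p = 0.41). Clk1-210, from a kinase of SR proteins, was at 33.8% ± 2.24 and 34.1% ± 3.47. Across libraries of the same group several of these varied widely, such as Srsf6-201 at 21.3% ± 9.99 and Tial1-204 at 17.5% ± 14.8 in WT. In level, the median over the 61 was -0.20 on the log2 scale, beside -0.0028 over all members. At an unadjusted edgeR p under 0.05, 3 were higher and 7 lower, beside 3685 and 3047 of all 46935 transcripts. DESeq2 called 5 lower, beside 3.94% of all transcripts with an adjusted p: Hnrnpa1-204, Hnrnpk-203 and the 3 members of Hnrnpd. Hnrnpd as a gene was lower too (log2 -0.42, edgeR adjusted p = 0.0472).

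Genes of m6A writing, reading and erasing held 7 members in 5 genes, of which 1, Ythdc1-208, was called, lower in share and level. Over all transcripts edgeR called 0.0998% lower in share and 0.219% lower in level. Hnrnpa2b1-209, of a nuclear RNA-binding protein, was at 34.5% ± 4.50 and 41.0% ± 1.84 (log2 0.25 ± 0.10, adjusted p = 0.513), and Hnrnpa2b1-207 under 1% in both groups. Ythdc2-203 held 50.5% ± 2.18 and 53.0% ± 1.95. The members of the methyltransferase genes varied widely between libraries of a group, with Mettl3-212 at 13.1% ± 10.1 and 5.53% ± 5.05, Mettl3-208 at 3.80% ± 6.57 and 3.42% ± 2.66 and Mettl5-204 at 13.4% ± 9.06 and 26.1% ± 6.45. At the gene level edgeR called 3 of 23 tested genes of this list higher and 0 lower, beside 5.75% and 3.49% of all 17610 genes. The 3 were the cytoplasmic readers Ythdf2 (log2 0.92 ± 0.11, adjusted p = 0.00276) and Ythdf1 (log2 0.54 ± 0.10, adjusted p = 0.014), and Ythdc1.

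The decay machinery itself changed little in RNA level. Of 29 of its genes tested, from UPF and SMG proteins to the exon junction complex, edgeR called 1 higher and 0 lower, beside 5.75% and 3.49% of all 17610 genes. The gene called was Smg8, a regulator of the SMG1 kinase, at 15.7, 14.9 and 19.4 CPM in WT and 29.2, 25.9 and 27.3 CPM in Wtap KO (log2 0.72 ± 0.14, adjusted p = 0.0176), with no overlap. Upf1, the central helicase, was at 54.9 ± 14.7 and 59.8 ± 4.11 CPM (adjusted p = 0.722), and Smg1 at 395 ± 28.5 and 350 ± 36.2 CPM (adjusted p = 0.361). The genes of the list with the highest level per length were Pabpc1, Magoh and Pnrc2, none of them called. Over the 29, the median log2 fold change was -0.09, against -0.00058 over all genes. It held 2 members, both not called: Magohb-202, from an exon junction complex gene, at 13.3% ± 1.26 and 10.4% ± 0.641 (adjusted p = 0.546), and Smg5-202, from a gene of the decay step, at 5.05% ± 1.86 and 5.04% ± 0.246.

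T cell genes held 14 members in 12 genes, with 0 called in share or level by edgeR or by DESeq2. At an unadjusted edgeR p under 0.05, 1 was lower in share and 2 lower in level. Over all transcripts, 4.46% were lower in share at that threshold, and 3047 of 46935 lower in level. The member lower in share was Nfkb1-207, of a subunit of NF-kappa-B, at 31.6%, 33.6% and 30.5% in WT and 28.9%, 29.8% and 25.9% in Wtap KO (log2 -0.18 ± 0.07, adjusted p = 0.494). Itgb2-204, of the integrin beta chain of LFA-1, was the main transcript of its gene at 72.7% ± 4.78 and 73.5% ± 5.39. Respiratory chain genes held 15 members, with 0 called in share by edgeR or DESeq2 and 0 at an unadjusted edgeR p under 0.05. In level edgeR called 0 of the 15, with 3 lower at an unadjusted p under 0.05 (Atp5a1-204, Atp5f1-203 and Ndufs4-204). DESeq2 called these 3 lower, beside 3.94% of all transcripts with an adjusted p. The members named here from ribosomal protein, T cell and respiratory chain genes, other than Rps9-210 and those of highest level, were picked after their values were seen.

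In level, edgeR called 13 members higher and 2 lower of 1794 tested (0.725% and 0.111%), beside 0.501% and 0.219% of all 46935 transcripts. DESeq2 called 72 and 54, beside 4.34% and 3.94% of the 37755 transcripts to which it gave an adjusted p. Leaving out any 1 library left at most 1 higher (without WT 1 or WT 3) and 0 lower by edgeR. Of the 13 rises, 6 reached the level of 1 TPM only through the Wtap KO mean, as Tex15-203 did. Whether the choice of members adds to the excess of rises over falls was not tested. By host gene, 5 were in host genes that also rose, 2 in host genes that fell (Spn-202 and St8sia1-203) and 6 in host genes not called. Slc2a9-204, from a urate transporter gene, rose from 2.33, 1.82 and 2.03 TPM to 7.37, 6.64 and 6.12 TPM (log2 1.66 ± 0.17, adjusted p = 0.028) along with its gene (log2 1.36, adjusted p = 0.00108), and its share was not called (adjusted p = 0.513). Tex15-203, from a gene known from germ cells, did the same, from 0.917 ± 0.151 to 3.60 ± 0.497 TPM (log2 1.92 ± 0.21, adjusted p = 0.0296), with its gene up by 1.73. Zfp846-203, from a zinc finger gene, fell from 4.43, 4.07 and 3.26 TPM to 1.64, 1.78 and 1.5 TPM (log2 -1.30 ± 0.19, adjusted p = 0.0497) with its gene (log2 -0.73, adjusted p = 0.0144). The share of Zfp846-203 was 54.7%, 53.2% and 50.9% in WT and 33.8%, 39.3% and 33.9% in Wtap KO, lower with no overlap but not called (adjusted p = 0.164), and the coding transcript Zfp846-201 was at 1.91 ± 0.486 and 2.52 ± 0.163 TPM (level, adjusted p = 0.596).

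**Figure D5:**
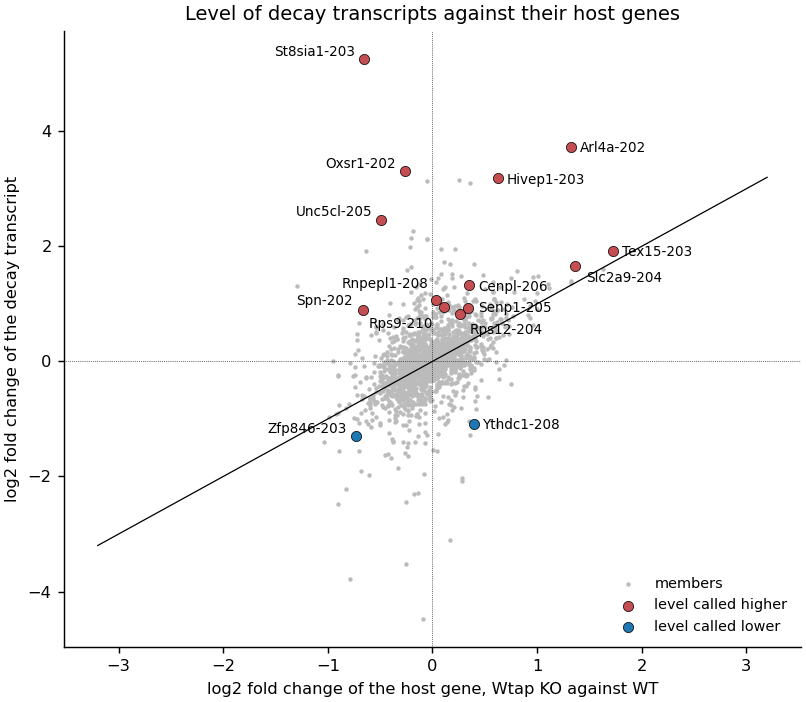
Log2 fold change of each member's level (y) against that of its host gene (x), Wtap KO against WT, with red points for the 13 members called higher and blue points for the 2 called lower in level. The diagonal marks equal change, and St8sia1-203 and Spn-202 lie above 0 in genes that fell, while Ythdc1-208 lies below 0 in a gene that rose.

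The host genes as a group were called about as often as genes at large. Of the 1456, edgeR called 68 higher and 65 lower (4.67% and 4.46%), beside 5.75% and 3.49% of all genes tested, with a median log2 fold change of -0.05 against -0.00058, and 9.23% of all genes were called in either direction. DESeq2 called 106 and 146, beside 8.01% and 7.24% of all genes with an adjusted p. The counts fell to 14 and 5 without Wtap KO 1, 13 and 4 without Wtap KO 2, 26 and 17 without Wtap KO 3 and 18 and 11 without WT 2, and 80 to 93 higher and 90 to 96 lower were called without WT 1 or WT 3. Of the 9 members called in share, the host gene was called for 4.

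The members nearest the level threshold give its meaning. Just inside were Fbxo34-208 at a mean of 1.00 TPM, Abcd4-207 at 1.00 and Dcaf17-204 at 1.00, and just outside were Parg-205 at 0.997, Atg4b-208 at 0.995 and Cenpf-201 at 0.994. Another 29 transcripts of this type on X or Y passed the level and are no members.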

How the data were processed

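The authors deposited, per library, kallisto 0.44.0 estimated counts and TPM values per transcript (GRCm38, per the submitters' processing notes). For the index annotation, strand setting and filters, the sources used here give nothing. kallisto splits reads among transcripts that share sequence, so deposited estimated counts can be fractions, and TPM keeps no depth. Identifiers matched GENCODE M21 for 99.1% of transcripts (1218 were left out). Counts were rounded. A share is a transcript's estimated counts over those of its gene. edgeR 4.0.16 (R 4.3.3, robust quasi-likelihood, filterByExpr) was fitted 3 times on all features, with genotype as the only term: transcripts with the gene total as offset (genes with 2 or more transcripts and 10 or more counts in each library), transcript levels (TMM) and gene levels (TMM). An SE is the absolute log2 fold change over the square root of F. The fits were tested on simulated counts drawn for each transcript or gene on its own. That simulation does not cover the splitting of reads among transcripts that share sequence. limma 3.58.1 (pseudocount 0.1 TPM, prior count 0.5) and DESeq2 1.42.0 gave alternatives. The labels give no batch. The members and lists were chosen with earlier results of these data known. Named members were the calls in share, filled to 5 per direction, the 8 of highest TPM, the 5 of smallest p in level per direction and members of the decay, m6A and splicing lists, with called members of the T cell list. Of the 8, 1 is not reported here.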

Additional observations from a re-analysis of the deposited data

How the results depend on the processing

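Of the values for members named for share or level, 74 stayed on their side of the threshold, 126 dropped below it and 2 passed it. None changed direction, which could hardly occur in refits of the same libraries for members named for their change. With DESeq2, 43 members were called higher and 16 lower in share, 72 and 54 in level, and 106 and 146 host genes. Without a filter on low counts, 2 and 0 were called in share and 8 and 1 in level. limma on the log-ratio of TPM called 5 and 0 in share (91 and 64 at an unadjusted p under 0.05). Over fits without 1 library, share calls ranged from 0 to 1 higher and 0 to 0 lower, level calls from 0 to 1 and 0 to 0, host gene calls from 13 to 93 higher and 4 to 96 lower, and the difference of summed shares from 0.397 to 0.741 percentage points (0.547 with all). Each such fit leaves 5 libraries.

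With the replicate number as a block in the edgeR fit, 0 members were called higher and 0 lower in share (102 and 55 at an unadjusted p under 0.05, all 9 calls among them), 0 and 0 in level (123 higher and 83 lower at an unadjusted p under 0.05), and 36 higher and 21 lower host genes. Same-numbered libraries deviated together from their group means by -0.10, 0.05 and 0.14 (correlation across genes), and not every library correlated best with its own number. With 3 libraries per group, these values cannot settle whether the numbers mark a pairing. The 3 libraries per group and the reads that fit several transcripts limit these results, and 50-base reads seldom cover the 31-base words that set a member apart.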

Other observations

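Some members end far beyond the coding transcripts of their genes, a property picked after the values were seen and so given without a test. In 59 members the 3′ end lay at least 1000 bases past the end of every protein-coding transcript of the gene. They held 3 of the 6 rises in share (Arl4a-202, Spn-202 and Fam78a-203), 0 of the 3 falls, and 5 of the 13 rises in level (Arl4a-202, Spn-202, Hivep1-203, Rnpepl1-208 and Unc5cl-205). Of these, Arl4a-202, Hivep1-203 and Unc5cl-205 reached 1 TPM only through the Wtap KO mean, so their rises are tied to how members were chosen. At an unadjusted edgeR p under 0.05, 10 of the 59 were higher and 4 lower in share, and DESeq2 called 7 higher and 1 lower. Over all transcripts tested, edgeR called 0.11% higher and 0.0998% lower in share. At an unadjusted p under 0.05, 5.08% were higher and 4.46% lower, and DESeq2 called 1.38% higher and 1.09% lower. In level, edgeR called 0.501% of all transcripts higher. The other 1724 members with a coding transcript in their gene held 3 rises and 3 falls in share. The median log2 fold change of share was 0.01 in the 59 and 0.03 in the 1724. Cdc26-203, which ends 10929 bases past, was lower in share.

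Unc5cl-205 (chr17:48462360-48539714) ends 71028 bases past the coding transcripts of its gene and was at 0.907, 0.536 and 0.728 TPM in WT and 5.09, 4.26 and 2.95 TPM in Wtap KO (log2 2.46 ± 0.36, edgeR adjusted p = 0.0495). Its share was 7.90%, 3.58% and 4.39% in WT and 42.2%, 42.0% and 30.6% in Wtap KO (adjusted p = 0.0796). Hivep1-203, from a zinc finger gene, ends 7511 bases past and went from 0.757 ± 0.331 to 7.15 ± 0.514 TPM (log2 3.18 ± 0.39, adjusted p = 0.0348), while holding 3.04% to 3.35% of its gene in Wtap KO. Rnpepl1-208, from an aminopeptidase-like gene, ends 3543 bases past and went from 1.51 ± 0.130 to 3.24 ± 0.0635 TPM (log2 1.06 ± 0.15, adjusted p = 0.047). These 3 were named after their values were seen.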
